A study of Capra hircus with 2 samples.

Results

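The miRNAs miR-221 and miR-222 are made from neighbouring genes, and their mature 3p arms begin with the same 8 bases. They were measured in small RNA libraries from the mammary gland of dairy goats (Capra hircus). Clean tags are adaptor-trimmed reads, deposited as distinct sequences with read counts. Numbers of tags count reads throughout, unless called distinct, and a tag named by its length (the 26 nt tag) is 1 sequence with its reads. Tags of 18 nt or more were taken whose 5' end was that of the conserved mammalian mature arm, or 1 or 2 bases further in. They had to be free of mismatches to the arm as far as both sequences run, and could exceed it by up to 3 nt. Of the 4 mature arms sought (3p and 5p of each miRNA) 3 were found, and the pair makes up 2 of the miRNA genes behind a panel of 198 mature miRNA names. The pair took 2266 of 18031615 clean tags in lactation and 1294 of 7385833 in involution. Neither stage has a second library.

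The lactation library came from glands at day 10 after parturition. The involution library came from glands at day 5 after forced weaning in late lactation, which was day 218 after parturition. Each was made from equal parts of RNA of 5 goats, so the spread between animals is unknown, and no p-value can be given for a stage. Weaning and time since parturition cannot be told apart in this design, nor can fewer cells of a type and less RNA per cell. No genetic or drug treatment is named in the labels.

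miR-221 and miR-222 are encoded close together on the X chromosome of mammals and are thought to be cut from a shared transcript. Each hairpin precursor can release a miRNA from its 5' side (5p arm) and from its 3' side (3p arm), and the 3p arms are the ones usually studied. An animal miRNA finds its mRNA targets mainly through its seed, bases 2 to 8. Described targets of the shared 3p seed include the cell cycle inhibitor CDKN1B (p27), the growth factor receptor KIT and the estrogen receptor ESR1. The pair is best known from vascular endothelium and smooth muscle and from basal-type breast cancer cells. In the goat gene table of RefSeq (assembly ARS1.2), MIR222 and MIR221 are adjacent entries of the X chromosome, with 0 other genes between them.

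The 3 detected arms are printed below as they occur among the deposited tags at their conserved length, with the seed in capitals, to show what the 3p arms share and where they part. Both 3p arms carry the seed GCTACAT, and the 5p arm of miR-221 carries CCTGGCA.
miR-221-3p, 23 nt: aGCTACATtgtctgctgggtttc
miR-222-3p, 21 nt: aGCTACATctggctactgggt
miR-221-5p, 22 nt: aCCTGGCAtacaatgtagattt

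The arms of miR-221 pair with each other in the precursor. The longest perfectly complementary stretch between them has 9 bases, and it is given in capitals in the next lines. It spans positions 10 to 18 of the 5p arm and 3 to 11 of the 3p arm, counted from the 5' end of each, and so overlaps the 3p seed.
miR-221-5p: acctggcatACAATGTAGattt
miR-221-3p: agCTACATTGTctgctgggtttc

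The shared seed belonged almost wholly to these 2 miRNAs. No other name of the panel had it. In lactation 1949 tags carried GCTACAT at bases 2 to 8, which is a level of 108 TPM (here, tags per 1000000 clean tags of the library). In involution 1377 tags carried it, or 186 TPM. Tags with the first 18 bases of miR-221-3p or miR-222-3p made up 99.2% of them in the lactation library (98.7 to 99.5%) and 99.1% in that of involution (98.5 to 99.6%). All ranges in parentheses are exact 95% intervals and cover counting error only, since PCR copies were not marked.

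The 3p arms stood higher in the involution library when tags were scaled to all clean tags. For miR-221-3p there were 1059 tags in lactation, 58.7 TPM (55.3 to 62.4), and 759 in involution, 103 TPM (95.6 to 110). Its involution level was 1.75 times that of lactation (1.59 to 1.92). For miR-222-3p there were 278 tags in lactation, 15.4 TPM (13.7 to 17.3), and 236 in involution, 31.95 TPM (28.0 to 36.3), a ratio of 2.07 (1.74 to 2.47). The counting intervals of the libraries did not overlap for either arm, but whether goats of a stage differ by as much is unknown.

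The 5p arm of miR-221 went the other way. It had 929 tags in lactation, 51.5 TPM (48.3 to 54.9), and 299 in involution, 40.5 TPM (36.02 to 45.3). Its involution level was 0.786 times that of lactation (0.687 to 0.896). No tag began with the first 9 bases of the conserved 5p arm of miR-222. Since 0 observed tags leave room for 3, tags with that start could reach 0.166 TPM in lactation and 0.406 TPM in involution. Without a reference tag for this arm, forms that lack its first bases were not sought. The limits therefore do not hold for the arm as a whole, and its level is unknown. The same 9 bases also occurred further inside 7 lactation and 6 involution tags, which were not counted.

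**Figure D1:**
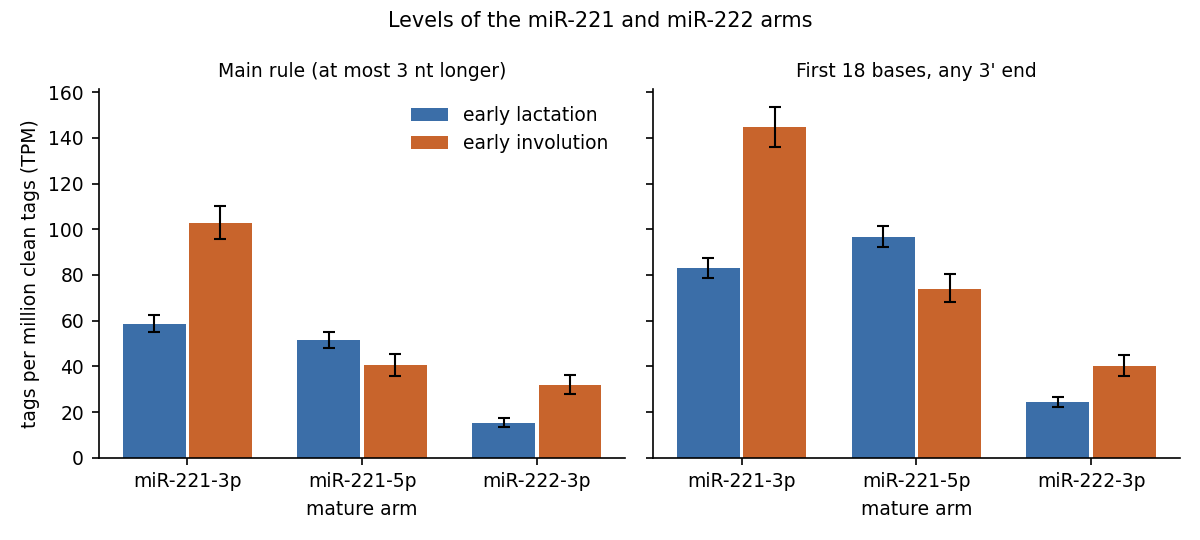
Levels of the 3 detected arms in TPM, with exact 95% Poisson intervals, for the rule used throughout (left) and for all tags that share the first 18 bases (right). With the first 18 bases, miR-221-5p stands above miR-221-3p in lactation (96.8 against 82.9 TPM) and below it in involution (74.1 against 145 TPM).

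These ratios have to be read against the other miRNAs of the same libraries. A miRNA was called when it reached 10 TPM in a library, differed at least 2-fold and had its whole interval beyond 1. Of 160 miRNAs at that level, 73 were called higher in involution (45.6%) and 9 lower (5.62%). The median log2 ratio of the 160 was 0.73, or 1.65-fold. Among the arms of the pair miR-222-3p was called higher, and miR-221-3p and miR-221-5p were not called. In the order of the 160 ratios, 81 miRNAs lay below miR-221-3p, 91 below miR-222-3p and 31 below miR-221-5p. Both 3p arms were thus near the middle of the panel.

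The scaling between libraries changes the size of the ratios and which arms are called. Median-of-ratios factors moved every log2 ratio by -0.83 and edgeR's TMM factors by -0.74. With median-of-ratios factors miR-221-3p had a ratio of 0.987 (0.898 to 1.08) and miR-222-3p 1.17 (0.978 to 1.40). With TMM factors the ratios were 1.05 (0.953 to 1.15) and 1.24 (1.04 to 1.48), so miR-222-3p was not called under either. The ratio of miR-221-5p became 0.443 (0.388 to 0.505) and 0.470 (0.412 to 0.536), which passed the 2-fold limit on the lower side. Over the panel, 49 miRNAs were then higher and 39 lower with median-of-ratios factors, and 53 and 34 with TMM.

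**Figure D2:**
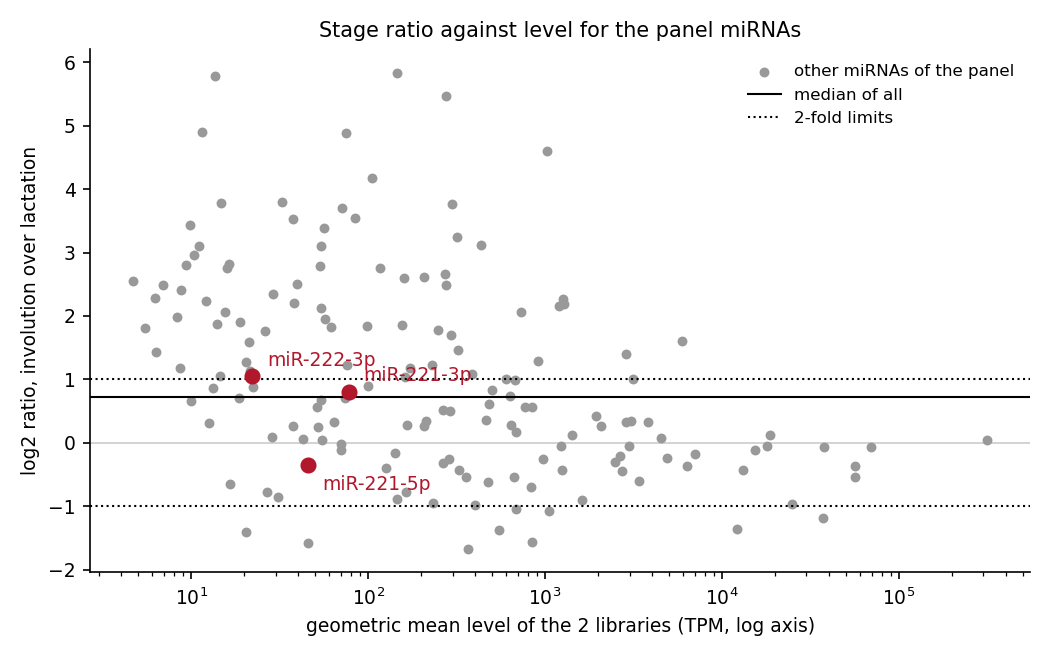
Log2 ratio of involution over lactation against the geometric mean level of both libraries (log axis) for the panel miRNAs of at least 10 TPM, 1 point each. The 3p arms of the pair lie near the median of 0.73 (solid line), whereas miR-221-5p lies below 0; the dotted lines mark 2-fold differences.

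The balance of miR-222-3p and miR-221-3p does not depend on that scaling, because both counts come from the same library. In lactation there were 0.263 tags of miR-222-3p for each tag of miR-221-3p (0.229 to 0.300). In involution there were 0.311 (0.268 to 0.360). The odds ratio of involution over lactation was 1.18 (0.968 to 1.45), so a shift in the balance was not detectable at this depth, and the interval allows a rise of up to 1.45-fold. Counted by the first 18 bases it was 0.945 (0.797 to 1.12), on the other side of 1. miR-221-3p was the more abundant 3p arm in each library under every counting rule tried.

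The balance of the miR-221 arms did differ between the libraries beyond counting error. The 5p arm made up 46.7% of the miR-221 tags in lactation (44.5 to 48.95%) and 28.3% in involution (25.6 to 31.1%). The odds of 5p over 3p in involution were 0.449 times those in lactation (0.381 to 0.529). That ratio was 0.439 (0.386 to 0.497) by the first 18 bases and 0.431 (0.376 to 0.495) when tags up to 6 nt longer than the mature arm were admitted. The shift was of nearly the same size under these 3 rules. With identical tags alone it was larger, at 0.0789 (0.0274 to 0.186), with 5p shares of 31.01% and 3.41% that rest on 80 and 6 reads of the 5p arm. The larger arm depended on the rule. By the first 18 bases the 5p arm was the larger in lactation, at 53.9% (52.1 to 55.6%), and the smaller in involution, at 33.9% (31.5 to 36.2%).

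The other precursors of the panel in which each arm reached 10 TPM in at least 1 library give the background for this shift. By the first 18 bases there were 17 such precursors, miR-221 included. For 16 of them the interval of the odds ratio excluded 1, with a lower 5p share in involution for 6 and a higher one for 10. The larger arm changed in 3, miR-193a, miR-574 and miR-221. In miR-193a the 5p share was 96.7% in lactation and 35.6% in involution, and in miR-574 it was 70.5% and 19.02%. Ordered from the greatest relative loss of the 5p arm, miR-221 was in place 4, after these and miR-532. A change in arm balance was therefore common in these libraries and is not particular to miR-221. With the 3 nt limit 14 of 17 intervals excluded 1, with 7 lower and 7 higher.

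**Figure D3:**
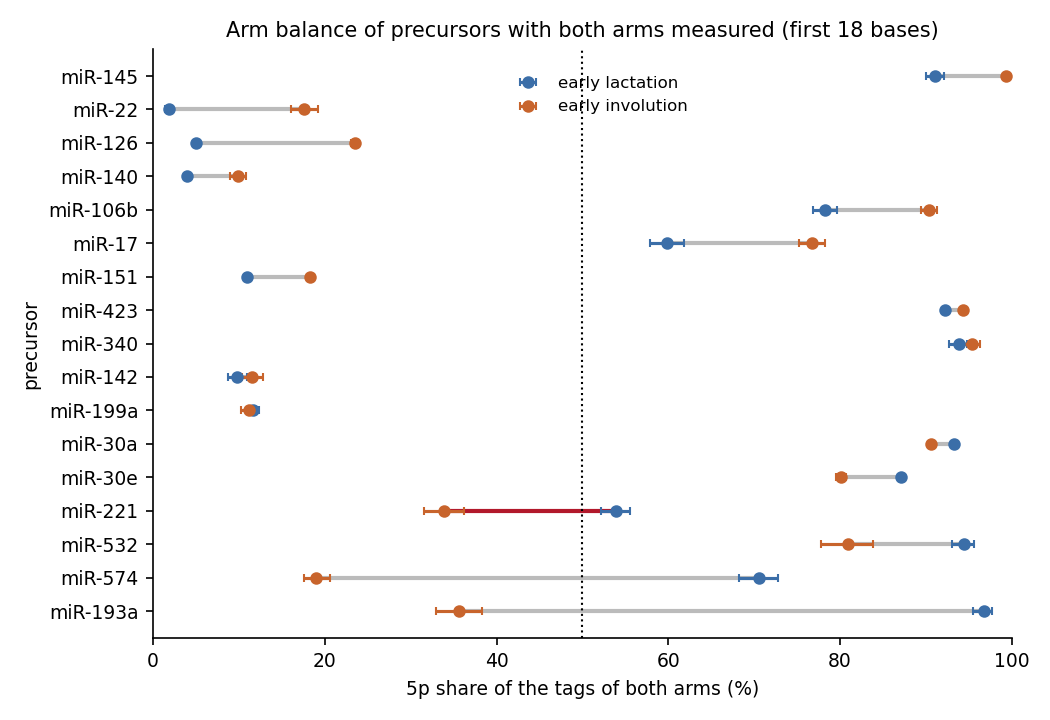
Share of 5p tags among the tags of both arms for 17 precursors in lactation and involution, counted by the first 18 bases, with exact 95% intervals. For miR-221 (red line) the share goes from 53.9% in lactation to 33.9% in involution and crosses the dotted 50% line, as it does for miR-574 and miR-193a.

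The counting rule matters for the 5p arm through its 3' ends. Its most abundant tag in both libraries had 26 nt, which is 4 nt longer than the conserved arm and outside the 3 nt limit. It is printed here with further forms of the arm, again with the seed in capitals, because these tags decide which arm of miR-221 counts as the larger.
miR-221-5p, 26 nt: aCCTGGCAtacaatgtagatttctgt
miR-221-5p, 25 nt: aCCTGGCAtacaatgtagatttctg
miR-221-5p, 24 nt: aCCTGGCAtacaatgtagatttct
miR-221-5p, 23 nt: aCCTGGCAtacaatgtagatttc
miR-221-5p, 19 nt: aCCTGGCAtacaatgtaga

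The 26 nt tag alone had 730 reads in lactation, 40.5 TPM, and 219 in involution, 29.7 TPM. It took 41.8% of the 5p tags in lactation (39.5 to 44.2%) and 40.0% in involution (35.9 to 44.3%), so its share was alike within counting error. All tags more than 3 nt longer than the conserved arm made up 44.4% and 41.9%. Among 119 panel miRNAs with at least 200 tags in each library, miR-221-5p was the only one whose most abundant tag was over 3 nt longer than its conserved length in both libraries. The median share of tags of up to 30 nt that were over 3 nt longer was 0.0283% in lactation and 0.117% in involution. Of the 119, 0 exceeded miR-221-5p in either. The conserved lengths came from general knowledge of mammalian miRNAs and were not checked against an annotation. The standing of miR-221-5p among the 119 therefore rests on the 22 nt taken for it. A longer annotated arm, in goat or in another mammal, would lower its shares and could remove that standing.

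Within the 5p arm some of the other forms differed between the stages and some did not beyond counting error. The 25 nt tag had 161 reads in lactation and 66 in involution, a ratio of 1.001 (0.740 to 1.34), and the conserved sequence ending at 20 nt had 60 and 17, a ratio of 0.692 (0.378 to 1.201). The conserved sequence ending at 21 nt had 203 and 41, a ratio of 0.493 (0.344 to 0.693). The 24 nt tag had 208 reads in lactation and 27 in involution, a ratio of 0.317 (0.204 to 0.475). The 22 nt tag, which is the conserved form, had 80 and 6, a ratio of 0.183 (0.0653 to 0.416). The 23 nt tag went the other way, with 148 and 82 reads and a ratio of 1.35 (1.02 to 1.78). The 19 nt tag did so too, with 49 and 51 reads and a ratio of 2.54 (1.68 to 3.84). Tags that end in T took 75.5% of the arm in lactation and 57.8% in involution, and tags that end in A took 5.79% and 13.2%. The 19 nt tag itself ends in A and supplied 49 of 101 such tags in lactation and 51 of 72 in involution.

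The commonest form of miR-221-3p was 1 nt shorter than the conserved arm, and short forms took a larger share of its tags in lactation. The leading tags are printed to show the end that differs.
miR-221-3p, 21 nt: aGCTACATtgtctgctgggtt
miR-221-3p, 22 nt: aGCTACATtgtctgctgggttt
miR-221-3p, 23 nt with a last T: aGCTACATtgtctgctgggtttt

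The 22 nt tag had 435 reads in lactation and 390 in involution, or 24.1 and 52.8 TPM, a ratio of 2.19 (1.90 to 2.52). The 21 nt tag had 225 and 82, or 12.5 and 11.1 TPM, a ratio of 0.890 (0.682 to 1.15). The conserved 23 nt form had 178 and 170, or 9.87 and 23.02 TPM, a ratio of 2.33 (1.88 to 2.89). The gain of miR-221-3p in involution under total scaling thus lay in the tags of 22 and 23 nt, whereas the interval of the 21 nt tag included 1. Of all tags with its first 18 bases, 27.6% were 21 nt or shorter in lactation (25.4 to 29.97%) and 15.7% in involution (13.6 to 18.0%).

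Tags that depart from the conserved sequence did so mostly at the 3' end. In miR-221-3p, single substitutions at position 19 or later were found in 332 lactation and 260 involution tags. There were 4 and 2 in the seed and 3 and 1 at positions 9 to 18. Tags that differed in the first 2 bases were left out, so the seed count does not cover the first base of the seed. The most frequent substitution was C23T, at 71 tags in lactation and 129 in involution. Positions are counted from the 5' end of the mature arm, with the conserved base first. The printed tag with a last T made up 59 and 112 of these, a ratio of 4.63 (3.35 to 6.47). C23A had 41 and 61 tags. T20G went the other way, with 68 tags in lactation and 7 in involution. Whether such bases come from the precursor or were added later was not tested, since no hairpin sequence was used.

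In miR-222-3p the leading tag was 2 nt longer than the conserved form. It is shown with some of the forms that were short or shared unequally between the libraries.
miR-222-3p, 23 nt: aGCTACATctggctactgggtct
miR-222-3p, 25 nt: aGCTACATctggctactgggtctct
miR-222-3p, 20 nt: aGCTACATctggctactggg
miR-222-3p, 21 nt with a last A: aGCTACATctggctactggga

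The 23 nt tag had 97 reads in lactation and 89 in involution, or 5.38 and 12.1 TPM, a ratio of 2.24 (1.66 to 3.02). The 20 nt tag had 73 and 30, a ratio of 1.003 (0.633 to 1.55). A 19 nt tag, not printed, had 2 and 14, a ratio of 17.1 (3.93 to 155). The 25 nt tag, outside the 3 nt limit, had 59 and 21, a ratio of 0.869 (0.502 to 1.45). The tag with a last A (T21A) had 42 and 5, a ratio of 0.291 (0.0897 to 0.734). Some of the less frequent tags outside the limits went the other way, such as a 25 nt form with 2 and 9 reads. With all tags of the first 18 bases there were 438 in lactation and 296 in involution, and the ratio was 1.65 (1.42 to 1.92), no longer past 2-fold. With up to 6 nt of extension it was 1.89 (1.62 to 2.22).

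**Figure D4:**
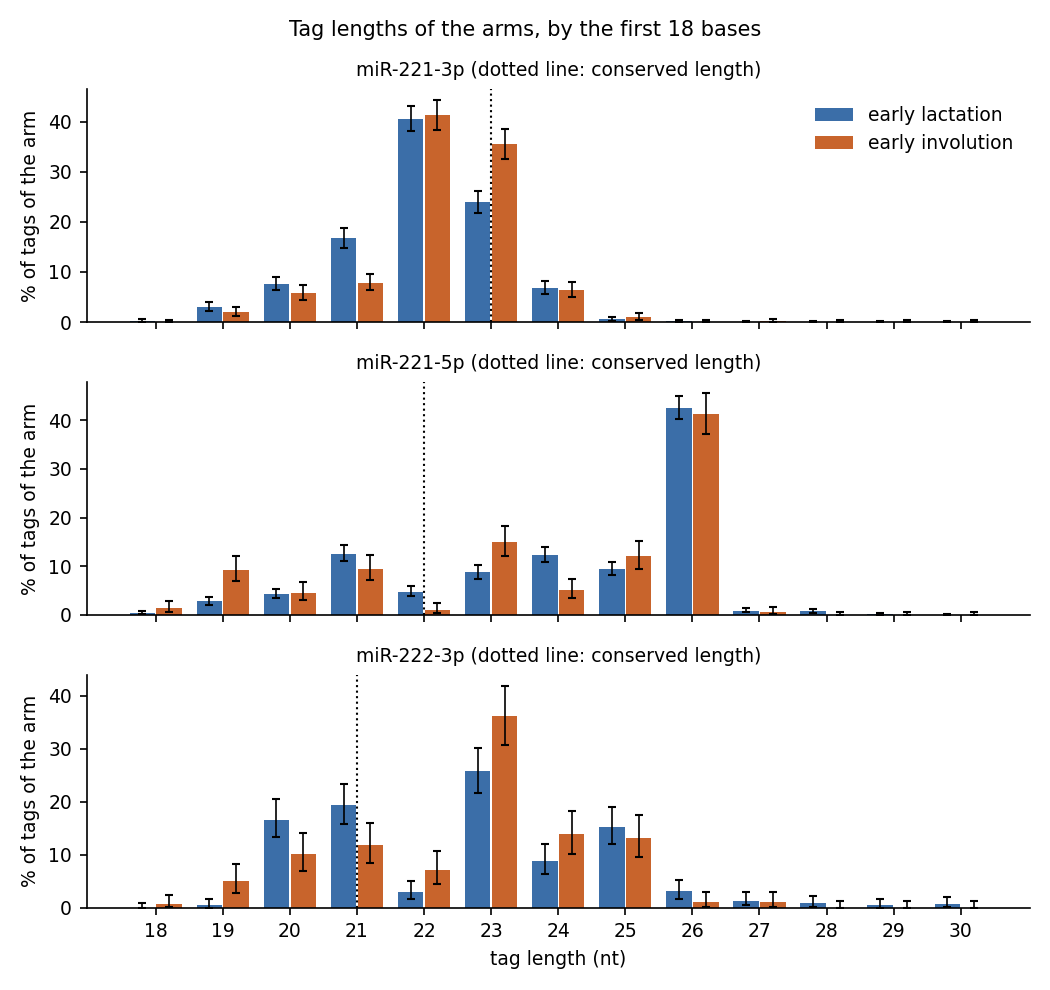
Share of each tag length (18 to 30 nt) among the tags with the first 18 bases of each arm, with exact 95% intervals and the conserved length dotted. miR-221-5p peaks at 26 nt in both libraries, miR-221-3p at 22 nt and miR-222-3p at 23 nt. Tags of 21 nt take a larger share of miR-221-3p in lactation (16.7% against 7.86%).

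Mean length within the 3 nt limit was higher in involution for the 3p arms and lower for the 5p arm, and for miR-222-3p the sign turned without that limit. Over tags that began at the first base and met the rule, miR-221-3p averaged 21.8 nt in lactation and was 0.24 nt longer in involution. miR-222-3p averaged 21.98 nt and was 0.22 nt longer, whereas miR-221-5p averaged 22.6 nt in lactation and 22.3 nt in involution. Across 125 miRNAs with at least 200 such tags in each library the median change was -0.01 nt, with 61 longer and 64 shorter in involution. Of the 125, 107 had a lower change than miR-221-3p, 103 a lower one than miR-222-3p and 6 a lower one than miR-221-5p. Over all tags of 18 to 30 nt with the first 18 bases, miR-222-3p averaged 22.7 nt in lactation and 22.6 nt in involution. On that count miR-221-3p averaged 21.98 and 22.3 nt, and miR-221-5p 24.1 and 23.8 nt, with the same signs as under the limit.

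Among tags that met the rule, the 5' ends, which set the seed, hardly varied. Of the tags of miR-221-3p 99.2% began at the first base in lactation and 99.7% in involution, and 8 and 2 tags lacked 1 base. All 929 and 299 tags of miR-221-5p began there. Versions of its 26 nt tag that lack the first bases run past the 3 nt limit and were not counted. For miR-222-3p the share was 99.6% in each library, on 277 of 278 tags in lactation and 235 of 236 in involution. Outside the rule, tags with 1 extra base before miR-221-5p numbered 18 and 3.

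A few lactation tags of over 30 nt held a 3p arm of the pair joined to at least 14 bases of another panel miRNA. Such tags numbered 16 for miR-221-3p and 25 for miR-222-3p in lactation, and 0 for each in involution, where 0 allows 0.406 TPM against 0.887 and 1.39 TPM in lactation. For miR-221-3p 12 of the 16 had miR-99b in front. For miR-222-3p 15 of the 25 began with miR-222-3p, and 4 reads of a single 43 nt tag went on into miR-27. No joined tag held miR-221-5p. Joined tags are not set against a count over the whole panel here. Long lactation tags were not particular to the pair. By the first 18 bases the most abundant tag of miR-22-3p had 44 nt in lactation, with 38.1% of its tags, and 22 nt in involution. Joined tags are too long for the 3 nt limit, but those that begin with the arm are among the tags counted by the first 18 bases. No tag held the reverse complement of the first 18 bases of any of the 3 arms.

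In the order of levels the arms of the pair stood between ranks 93 and 132. miR-221-3p held rank 93 of 198 in lactation, between miR-15a at 64.9 TPM and miR-17-3p at 57.5 TPM, and its interval overlapped those of both. In involution it held rank 107, between miR-183 at 107 TPM and miR-193a-3p at 101 TPM, with overlapping intervals as well. miR-222-3p held ranks 125 and 132, and miR-221-5p ranks 98 and 127. The nearest stage ratios among 107 other miRNAs of at least 100 TPM in a library, by distance in log2 ratio over the 2 libraries, were those of miR-151-5p, let-7d and miR-224 for miR-221-3p, at 1.78, 1.67 and 1.86 times. They were miR-340-5p, miR-101 and miR-99a for miR-222-3p, at 2.04, 2.02 and 2.13 times, and let-7a, miR-126-3p and miR-196a for miR-221-5p, at 0.776, 0.773 and 0.802 times.

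miRNAs described as acting on the same target mRNAs were compared with the pair by lists that leave miR-221 and miR-222 out and that share some members. Their counts are to be read beside the 45.6% of the 160 miRNAs called higher and 5.62% called lower, and a count near these shares says nothing about a list. Of 5 measured miRNAs described as targeting KIT, 3 were higher and 2 lower, with a median log2 ratio of 1.91. Among these miR-193a-3p had 1.83 TPM in lactation and 101 in involution. The abundant miR-148a had 56042 and 24683 TPM. Of 6 for ESR1, 5 were higher and 0 lower, with a median of 2.01. miR-19b, with the highest ratio of that list, had 24.7 and 445 TPM. miR-206, which was not called, had 20.9 and 13.3 TPM. Of 8 for CDKN1B or the related inhibitor CDKN1A, 3 were higher and 1 lower, near the share of the whole panel, with a median of 0.03; miR-24 had 5314 and 4521 TPM. The log2 ratios of the 3p arms were 0.81 and 1.05, beside 0.73 for all miRNAs, so the pair fell below the medians of the KIT and ESR1 lists and above that of the CDKN1B and CDKN1A list. With median-of-ratios factors 49 of the 160 miRNAs were higher and 39 lower. The counts then became 3 higher and 2 lower for KIT, 3 and 1 for ESR1, and 1 and 4 for CDKN1B or CDKN1A. The median of the CDKN1B and CDKN1A list became -0.80, through the same move of -0.83 that all log2 ratios made.

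Other miRNAs with which the pair is often grouped did not share one direction. The shares over all 160 miRNAs were again 45.6% higher and 5.62% lower, and with median-of-ratios factors 49 were higher and 39 lower. Of 5 measured miRNAs described as induced by inflammation 1 was higher and 1 lower, with a median of 0.12, which was -0.70 with median-of-ratios factors. In that list miR-21-5p had 17879 TPM in lactation and 19484 in involution, miR-146b 18388 and 17715, miR-155 987 and 481, and miR-125b 476 and 951. Of 15 measured X-linked miRNAs 10 were higher and 1 lower, with a median of 1.43, or 5 higher and 1 lower with a median of 0.60 under median-of-ratios factors. Among these were miR-98 at 188 and 225 TPM and miR-374a at 44.5 and 303 TPM.

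Markers of the cell types in which the pair is known give a view of the tissue mixture. Their counts too stand beside 45.6% higher and 5.62% lower over all miRNAs. Counts with median-of-ratios factors stand beside 49 higher and 39 lower of the 160, with every log2 ratio moved by -0.83. The vascular list had 4 of 10 higher and 1 lower, near the share of the panel, with a median of 0.27 and a summed level of 343641 TPM in lactation and 354579 in involution, most of it miR-143 of smooth muscle and stroma at 310018 and 318833. The endothelial miR-126-3p had 7226 and 5586 TPM, whereas miR-126-5p of the same precursor had 359 and 1499. Members of the vascular list thus differed in direction. miR-145-5p had 147 and 1283 TPM, and miR-10a, the member called lower, 887 and 340. With median-of-ratios factors 4 of this list were higher and 3 lower, with a median of -0.55. The epithelial list had 3 of 10 higher and 0 lower, with a summed level of 21510 and 26469 TPM and a median of -0.03, or 2 higher, 5 lower and -0.86 with those factors. Its members differed in direction: miR-200c had 15212 and 11255 TPM, miR-200b 2562 and 3234, miR-141 1756 and 4643, and miR-375 208 and 5039. The leukocyte list had 5 of 6 higher and 1 lower, with a summed level of 1217 and 1499 TPM, or 3 higher and 1 lower with those factors. That sum joins opposite differences, since miR-155 had 987 and 481 TPM, miR-142-3p 164 and 533, miR-342 17.4 and 182, and miR-223 18.6 and 160. The erythroid list had 2 of 3 higher and 0 lower, with 910 and 3040 TPM in all, or 2 higher and 1 lower with those factors; miR-451 had 595 and 2715 TPM and miR-486 313 and 262. No member of these 4 lists was at 0 in either library. The part of the cell mixture in the levels of the pair was not tested.

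**Figure D5:**
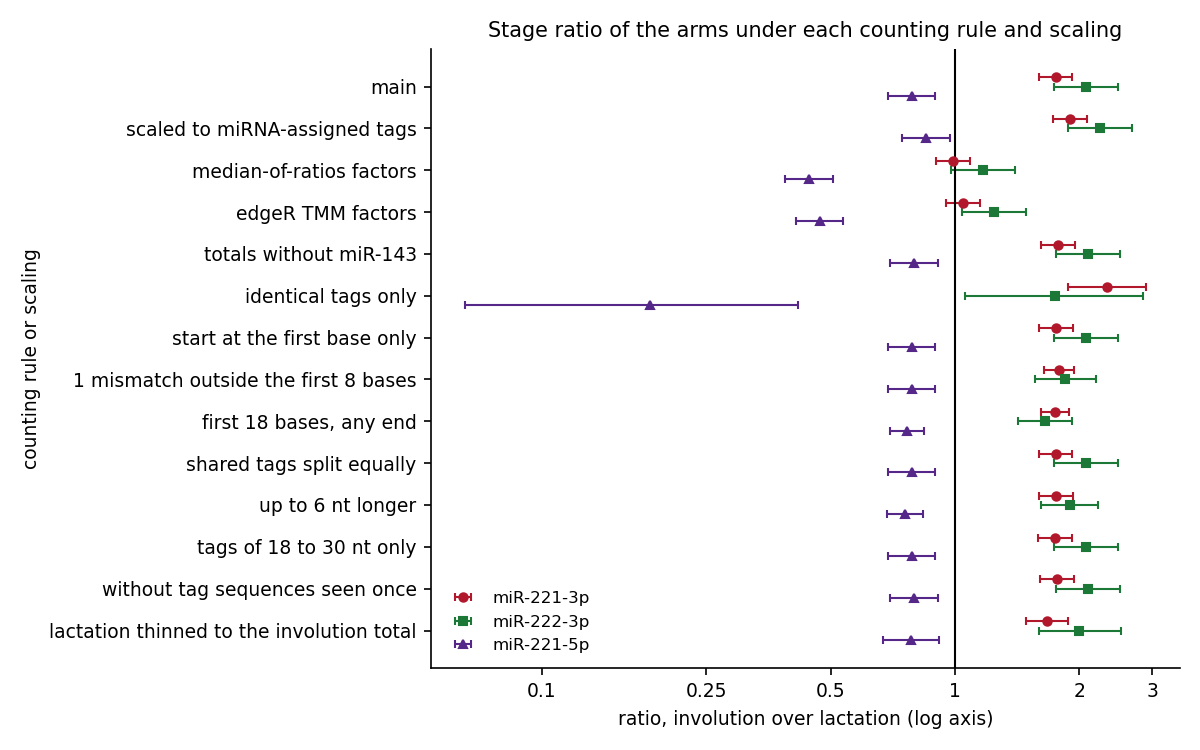
Ratio of involution over lactation (log axis) of the 3 arms with exact 95% intervals under each counting rule and scaling. miR-221-5p stays below 1 in all 14 settings, miR-222-3p stays above 1, and miR-221-3p lies at 0.987 with median-of-ratios factors and above 1 in the others.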

How the data were processed

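Small RNA was sequenced in 2 libraries, 1 per stage. The deposited files hold raw counts of reads per distinct clean tag. Per the description deposited with them, the authors removed low-quality reads and 5' adaptor contaminants, trimmed the 3' adaptor, and discarded polyA sequences and those shorter than 18 nt. Any aligner or genome build is not given in the sources used here.

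Panel miRNAs were recognised by a conserved start written from general knowledge (9 bases for the pair, 16 to 22 for the others) and a conserved length. The most abundant tag with that start and length served as reference sequence, so all printed sequences are deposited tags. For 195 of 198 names one was found. No table of mature or hairpin miRNAs was used, which replaces the planned reference table and leaves the planned check against hairpins out. Tags that matched several names were set aside (0.0339% of lactation and 0.0644% of involution tags). Counts were divided by all clean tags. Intervals are exact Poisson for levels, Clopper-Pearson for shares, conditional for ratios and odds ratios. With 1 library per stage there was no test.

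Named are all arms of the pair, the 3 nearest miRNAs by ratio and the neighbours by level. Up to 4 abundant members of each list are named, and for some lists further members. Of 10 lists, 1 is not reported here. The tag forms, miR-193a and miR-574 were named after their values were seen. The members and lists were chosen with earlier results of these data known. The interval and call procedure was tested on simulated counts. These held counting error alone, so the test does not cover PCR copies or differences between goats. No ratio near the 2-fold limit, where that of miR-222-3p lies, was simulated. Python 3.11.15, numpy 2.4.6, scipy 1.17.1, matplotlib 3.10.9, R 4.3.3 and edgeR 4.0.16 (TMM factors only) were used.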

Additional observations from a re-analysis of the deposited data

How the results depend on the processing

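Alternatives covered scaling, assignment of tags, tag lengths, tags seen once, depth and the filter on level; the extension of up to 6 nt was added after seeing the data. No paired analysis was possible because each stage has 1 library. The ratio of miR-221-3p, 1.75, became 0.987 with median-of-ratios factors, 1.05 with TMM and 2.33 with identical tags alone. That of miR-222-3p, 2.07, became 1.17, 1.24 and, by the first 18 bases, 1.65. That of miR-221-5p, 0.786, became 0.443, 0.470 and, with identical tags, 0.183. Each of these 3 ratios stayed within its counting interval in the other 10 alternatives, but the call of miR-222-3p did not hold in all. Its ratio was 1.74 with identical tags, 1.85 with 1 mismatch and 1.89 with 6 nt of extension, below the 2-fold limit. With identical tags miR-221-3p passed that limit. The level of miR-222-3p over miR-221-3p was 0.345 in lactation and 0.372 in involution with 6 nt of extension; in involution it was 0.177 with identical tags and 0.245 with 1 mismatch. The 5p share of miR-221 was 31.01% in lactation and 3.41% in involution with identical tags, 53.9% and 33.9% by the first 18 bases, and 61.7% and 40.96% with 6 nt of extension. Tags shorter than the conserved arm made up 76.7% and 72.3% of miR-221-3p, 34.5% and 39.1% of miR-221-5p, and 27.1% and 19.6% of miR-222-3p. By the first 18 bases these were 68.2% and 57.0%, 20.2% and 24.9%, and 17.1% in lactation for miR-222-3p. With 6 nt of extension they were 18.9% and 22.2% for miR-221-5p and 20.6% in lactation for miR-222-3p. The 73 miRNAs called higher became 43 with a minimum of 100 TPM, where fewer were tested, and the 9 called lower became 39 under median-of-ratios scaling and 34 under TMM. The higher share of all calls went from 89.0% to 55.7% and 60.9% under these scalings. Where no construction is named, the cause was not tested. Depth limits the single tag forms, many of which rest on fewer than 100 reads, and miR-222-3p.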
